A study of Mus musculus with 3 samples.

Results

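The Hox genes are the homeobox transcription factors that tell a cell where along the head-to-tail axis and along the limb it lies. They sit in 4 clusters, and within a cluster the paralogue number runs from 1, used in anterior tissue, to 13, used in posterior tissue and at the tip of the limb. Fibroblasts keep much of the Hox pattern of their place of origin in culture, so that the pattern works as a record of positional identity. Hox proteins bind DNA through the homeodomain, most of them together with Pbx and Meis cofactors, and the clusters are held silent by Polycomb and active by Trithorax complexes. Retinoic acid and Cdx factors switch Hox genes on in the embryo.

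All 39 Hox genes named Hoxa, Hoxb, Hoxc or Hoxd with a paralogue number were on the array, through 44 of its 55681 gene probes and 62 of its gene spots, beside 35696 gene names in all. Mouse embryonic fibroblasts (MEF) are primary cells of minced embryos, here C57BL/6 embryos at midgestation from which head, legs and inner organs had been taken away. n-Butylidenephthalide (BP) is a compound of Angelica sinensis, which the labels call n-Butylenephthalide. Total RNA was measured from MEF without BP (control), MEF with BP at 10 µg/ml (BP10) and MEF with BP at 40 µg/ml (BP40), in the same medium and with no transgene in any group. The labels record no treatment for the control, whereas the paper names DMSO. Each condition had 1 array, so no test, p-value or SD between cultures can be given, and every ratio compares 1 array with another. The control array was scanned in a session of its own, and BP10 and BP40 together in another, so the effect of BP and that of the session cannot be told apart in ratios to control. In such bulk RNA, fewer cells of a type and less RNA per cell cannot be told apart either.

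Of 59305 gene spots per array, the share well above background was 81.7% for control, 68.3% for BP10 and 69.1% for BP40. The median gene spot signal was 224, 145 and 123 in the same order, and no spot was saturated. The signal of a probe is given below as log2 of the processed intensity minus the 75th percentile of the gene spots of its array, called the normalized log2 signal. A ratio is the difference of 2 such values, and a gene was called at a log2 ratio of 1 or more in size (2-fold), provided that 1 or both of the arrays showed its probe well above background. The only spread at hand is technical. Over 4731 genes with 2 probes above background, the median SD of the log2 ratio between both probes was 0.29 for BP10 against control, 0.22 for BP40 against control and 0.21 for BP40 against BP10. Markers of fibroblasts were all present: 12 of 12, among them Col1a1, Twist1 and Vim, were above background on every array. Markers of other cells were above background on all 3 arrays too: 7 of 10 of epithelium, 6 of 10 of endothelium, 8 of 10 of neural cells, 9 of 10 of cartilage and bone, 6 of 10 of skeletal muscle and 10 of 10 of macrophages. Cdh1 and Epcam of epithelium and Cdh5 and Tie1 of endothelium were above it on none. The part of these markers in the Hox ratios was not tested.

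Each Hox probe is 60 bases long, and 3 that lie in coding sequence of kinds shared across the family are shown, sense to their genes. Those of Hoxa6 and Hoxc12 carry calls described below, and Hoxc11 is the neighbour of Hoxc12. Capitals in Hoxa6 mark 4 codons of the hexapeptide, the short motif that binds Pbx. In the other 2 they mark codons of the recognition helix of the homeodomain, which reads the DNA. Positions are those of the array design on mm9. They are chr6:52158194-52158253 on the minus strand for Hoxa6, and, on the plus strand, chr15:102787022-102787081 for Hoxc11 and chr15:102768889-102768948 for Hoxc12.
Hoxa6: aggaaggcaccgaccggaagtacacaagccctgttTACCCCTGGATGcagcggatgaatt
Hoxc11: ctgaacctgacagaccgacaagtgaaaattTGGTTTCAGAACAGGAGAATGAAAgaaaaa
Hoxc12: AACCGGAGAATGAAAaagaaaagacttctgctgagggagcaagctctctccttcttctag
Cross-hybridization between probes of the family was not tested.

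Most Hox genes were present in these MEF, from every cluster and every paralogue group. On all 3 arrays, 36 of 39 genes were well above background: 11 of 11 in HoxA, 9 of 10 in HoxB, 9 of 9 in HoxC and 7 of 9 in HoxD. By position these were 6 of 8 anterior genes (paralogues 1 to 3), 15 of 15 central genes (4 to 8) and 15 of 16 posterior genes (9 to 13). Hoxb1, a gene of the embryonic hindbrain, was not above background on any array, with signals of 8.1 on control, 9.2 on BP10 and 8.0 on BP40. Hoxd12, a digit gene, was likewise not above background, with signals of 25.9, 12.7 and 16.9. Hoxd1 was above background on the control array, with a signal of 60.1, and not on BP10 and BP40, with 10.0 and 8.3. Since the dimmest probes above background bound the 2 lower values of Hoxd1, its ratios were at least 1.16-fold and 1.15-fold lower than control, which is no call. Hoxa13, Hoxc13 and Hoxd13, known from the hand and foot plate, the hair and the tail, were above background on all arrays with the trunk genes.

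**Figure D1:**
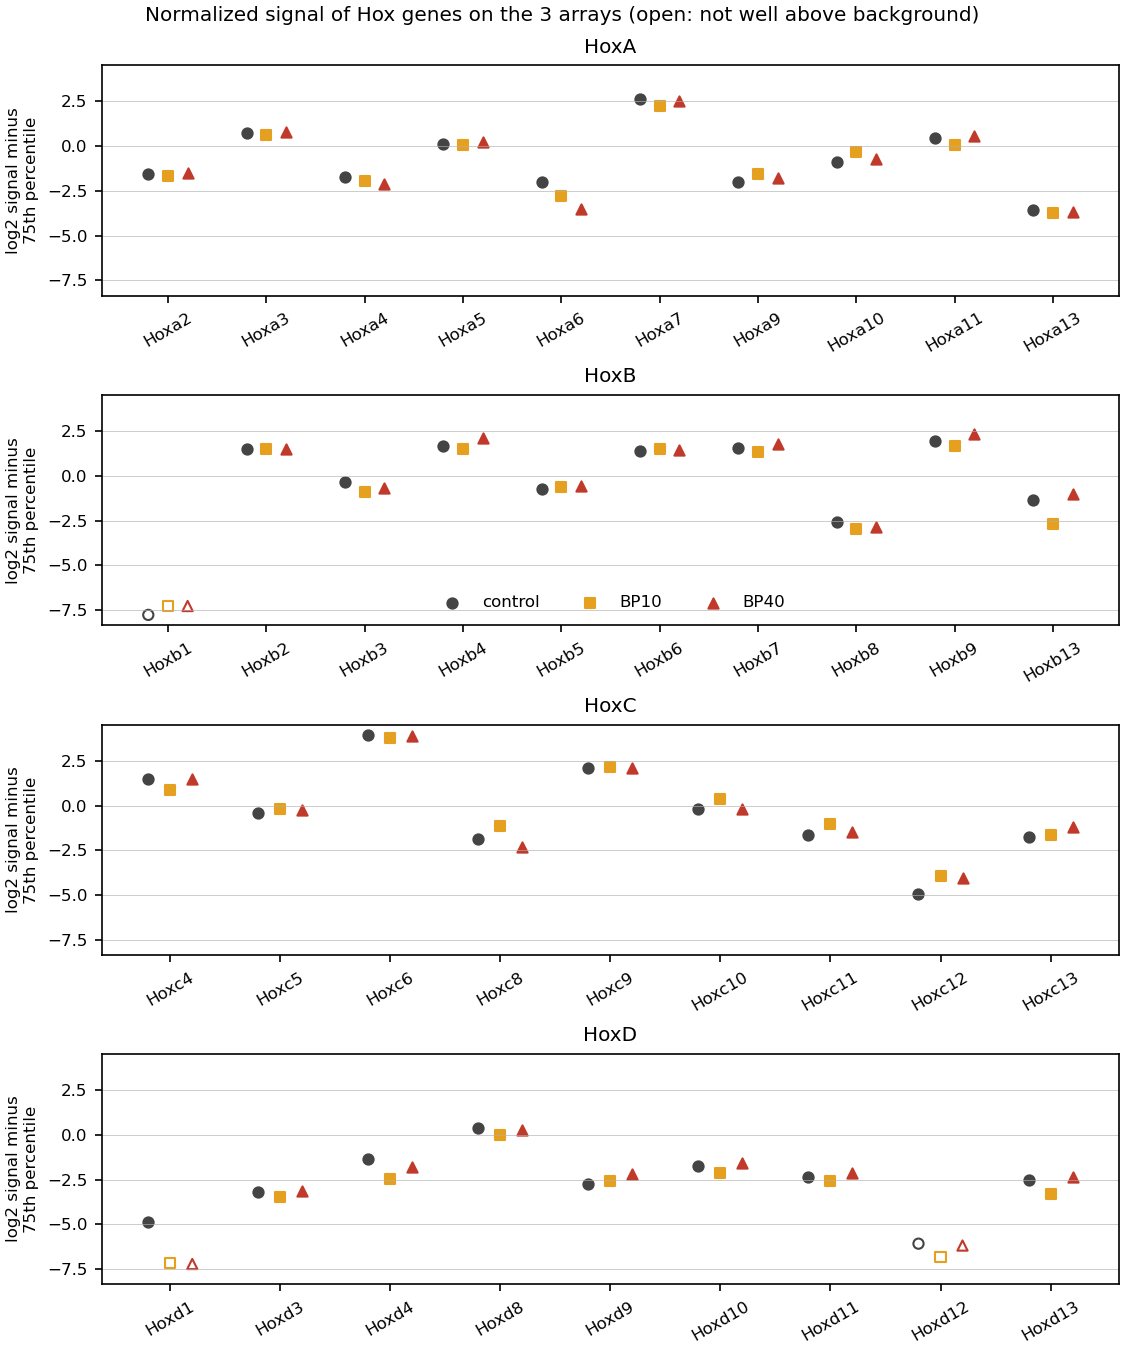
Normalized log2 signal (log2 intensity minus the 75th percentile of the array) of the probe used for the Hox genes shown on the control, BP10 and BP40 arrays, by cluster and paralogue number, with open marks where the spot was not well above background. Heights of different genes cannot be compared because each probe has its own brightness; Hoxb1 and Hoxd12 are open on all 3 arrays and Hoxd1 on BP10 and BP40.

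By the probes used, few Hox genes differed by 2-fold, and none was called at both doses against the control. The second probe of Hoxb3, described below, was past 2-fold higher at both doses (1.65 and 1.16). BP10 against control called 3 of 39 Hox genes, 1 higher and 2 lower, where 13.1% of all genes on the array were called (2.62% higher and 10.5% lower). BP40 against control called 1 of 39, which was lower, where 11.7% of all genes were called (2.54% higher and 9.15% lower). BP40 against BP10 called 2 of 39, 1 in each direction, where 3.64% were called (1.88% higher and 1.76% lower). The median log2 ratio of the Hox genes was −0.17, 0.03 and 0.16 in the 3 comparisons, beside −0.24, −0.12 and 0.06 for all genes. With arrays scaled on the 9 E1A spike-in probes, the all-gene median became 0.01, −0.65 and −0.70 and that of the Hox genes 0.08, −0.49 and −0.60, so that all 3 Hox medians changed sign while they stayed near those of all genes.

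Among the 36 Hox genes above background on all arrays, the spread of the ratios was narrow at the higher dose. Within 1.5-fold of the control were 34 of 36 at BP40 (94.4%, against 71.6% of the 25033 genes above background on all arrays) and 27 of 36 at BP10 (75%, against 69.3%). BP40 and BP10 lay within 1.5-fold of each other for 29 of 36 (80.6%, against 85.0%). Counted around the all-gene median, which no shift of a whole array can move, 32 of 36 lay within 1.5-fold at BP40 (88.9% against 71.9%) and 26 of 36 at BP10 (72.2% against 70.7%).

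**Figure D2:**
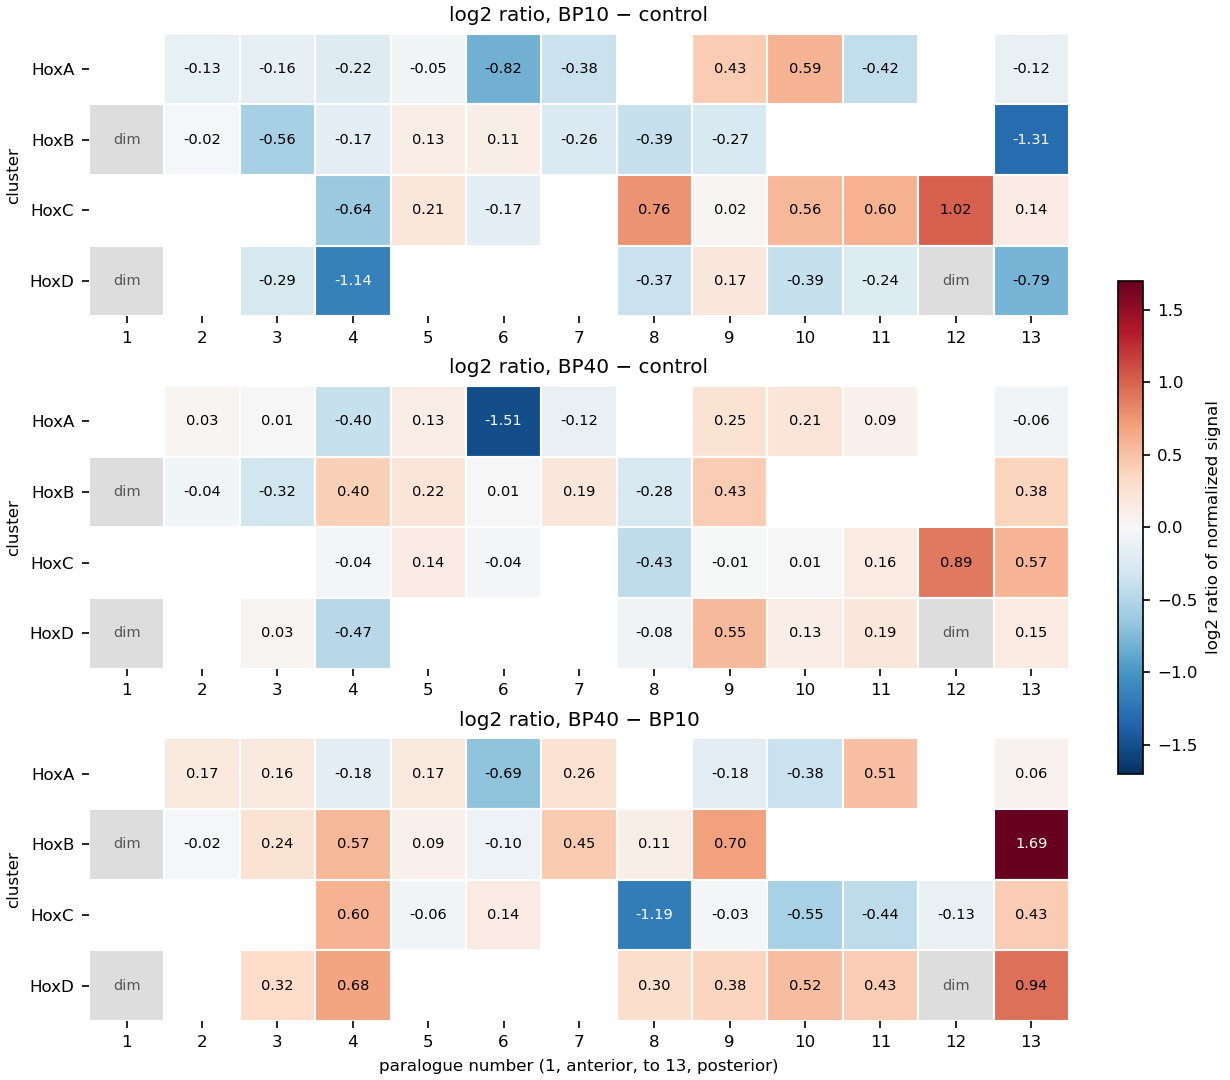
Log2 ratio of the Hox genes in the 3 comparisons, with the 4 clusters as rows and paralogue numbers 1 to 13 as columns; red is higher and blue lower on the array named first, "dim" marks genes not above background on all 3 arrays, and white cells have no gene or no value shown. At BP40 against control most cells are pale, with Hoxa6 at −1.51 as the exception, while at BP10 Hoxc8 and Hoxc10 to Hoxc12 are red and most of HoxB and HoxD blue; scaling on E1A probes shifts every ratio of a panel alike, by the change in the all-gene median.

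Hoxa6, which helps set thoracic identity, was the single Hox gene called at BP40 against control by the probes used. Its normalized log2 signal was −1.99 on control, −2.81 on BP10 and −3.50 on BP40, from spot signals of 443.5, 203.6 and 109.4. It was highest on the control array and lowest at the higher dose, by a log2 ratio of −0.82 at BP10 and −1.51 (2.84-fold) at BP40. Over the 12 alternatives the BP40 ratio ran from −2.03 to −1.02. Its neighbours in the cluster differed less, with Hoxa5 at 0.13 and Hoxa7 at −0.12 at BP40, and so did its paralogues Hoxb6 (0.01) and Hoxc6 (−0.04).

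Hoxb13, the most posterior HoxB gene and a regulator of the prostate and tail end, was lower on the BP10 array alone. Its normalized log2 signal was −1.36 on control, −2.67 on BP10 and −0.99 on BP40, from signals of 686.5, 224.3 and 624.3. BP10 lay below both other arrays, by −1.31 against control (2.48-fold), and BP40 lay above BP10 by 1.69 (3.22-fold) and above control by 0.38. On the E1A scale the difference between the BP arrays was 0.92, which is no call. The other HoxB gene of the posterior group, Hoxb9, had ratios of −0.27 and 0.43 against control. Hoxb13 lies apart from the rest of HoxB, with Hoxb9 as the next Hox gene.

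Hoxd4, which patterns the hindbrain border and neck vertebrae and answers to retinoic acid in the embryo, was the other gene lower at BP10. Its normalized log2 signal was −1.33 on control, −2.47 on BP10 and −1.79 on BP40, from signals of 703.2, 257.9 and 356.6. In the reported scaling control was highest and BP10 lowest, with log2 ratios of −1.14 (2.21-fold) at BP10 and −0.47 at BP40. The call at BP10 was absent under quantile normalization, brightness correction, E1A scaling and normexp, where the ratio came as near to 0 as −0.90. The 4 genes of paralogue group 4 had log2 ratios from −1.14 to −0.17 at BP10, with a median of −0.43, and from −0.47 to 0.40 at BP40.

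Hoxc12, a posterior gene between Hoxc13 and Hoxc11, was the single Hox gene called higher against control by the probes used. Its normalized log2 signal was −4.92 on control, −3.90 on BP10 and −4.03 on BP40, from signals of 58.3, 95.9 and 75.9, so that both BP arrays lay above control. The log2 ratio was 1.02 (2.03-fold) at BP10, just past the threshold, and 0.89 at BP40. The probe is dim, and its ratio at BP10 ran from 0.67 with the normexp background correction, which is no call, to 1.63 after subtraction of the median ratio at like brightness. Under quantile normalization and the brightness correction it was called at BP40 too.

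Hoxc8, which acts in the thoracic skeleton and in motor neurons of the forelimb level, moved to opposite sides of the control at the 2 doses. Its normalized log2 signal was −1.88 on control, −1.12 on BP10 and −2.32 on BP40, from signals of 478.7, 658.2 and 248.5. BP10 was highest and BP40 lowest, by log2 ratios of 0.76 and −0.43 against control and −1.19 (2.29-fold) between the BP arrays. The last of these was −0.99 with normexp, just short of a call, and −1.96 on the E1A scale, where Hoxc8 was also called higher at BP10 (1.01). No HoxC neighbour lay below BP10 on the BP40 array by so much, the next being Hoxc10 at −0.55.

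**Figure D3:**
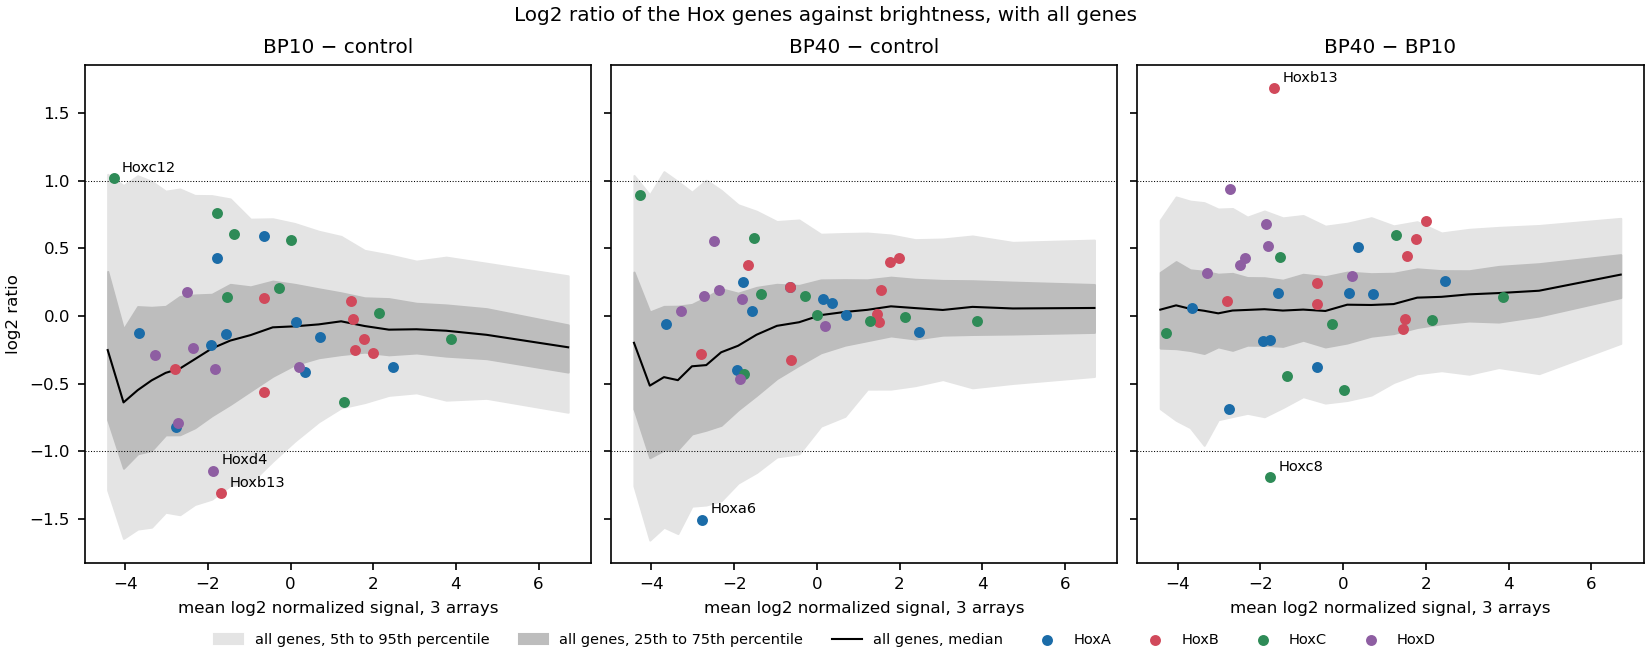
Log2 ratio of Hox genes above background on all arrays against their mean normalized log2 signal, coloured by cluster; grey bands hold the central 50% and 90% of all genes of like brightness, the black line is their median, and dotted lines mark 2-fold. Named points are the calls (Hoxc12, Hoxd4 and Hoxb13 at BP10, Hoxa6 at BP40, Hoxb13 and Hoxc8 between the BP arrays); scaling on E1A probes moves points and bands together.

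The genes of the 4 clusters lay on different sides of the array at large at BP10, which is a description with no test. Relative to the all-gene median of −0.18 among genes above background on all arrays, 8 of 9 HoxC genes were higher (median log2 ratio 0.21), 7 of 11 in HoxA (−0.13), 4 of 9 in HoxB (−0.26) and 1 of 7 in HoxD (−0.37). Under the 7 other scalings and background corrections the count stayed between 7 and 8 for HoxC, 6 and 7 for HoxA, 3 and 4 for HoxB, and 1 and 3 for HoxD. Counts around the all-gene median, here and below, could change only under quantile normalization, brightness correction and normexp. The other settings shift whole arrays or repeat the reported values. Within HoxC the posterior genes, Hoxc9 to Hoxc13, were at 0.02 to 1.02 with a median of 0.56, and 5 of 5 were above the all-gene median in each setting. Of the central HoxC genes, Hoxc8 (0.76), Hoxc5 (0.21) and Hoxc6 (−0.17) lay above it too, and Hoxc4 (−0.64) below. Medians of all genes at BP10 were lower for dim genes, at −0.32 near a mean normalized log2 signal of −2.32 and −0.48 near −3.36. Several HoxD probes lie in that range, so the HoxD count depends on the reference taken.

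BP40 against control gave a different order. Of the posterior genes of all clusters, 15 of 15 lay above the all-gene median of −0.06, with log2 ratios from −0.06 to 0.89 and a median of 0.19, and 13 to 15 did under the other settings. This count depends on the probe taken, since the second probes of Hoxd11 (−0.44) and Hoxa13 (−0.24) lay below that median. The central genes lay evenly around it, with 8 of 15 above, and 5 of 6 anterior ones lay above it. The posterior median lay 0.25 above the all-gene median. The spread between probes of 0.22 is for single genes and not for a median of 15. Of the 15, 14 stayed within 1.5-fold of control. On the E1A scale the median of these genes was below 0, at −0.33.

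Between the BP arrays, which were scanned together, HoxD lay to 1 side. In the reported scaling all 7 HoxD genes above background lay above the all-gene median of 0.10. The same held under quantile normalization, brightness correction and normexp, which alone could change this count. In the reported scaling their ratios ran from 0.30 for Hoxd8 to 0.94 for Hoxd13, the gene of the digit tips. The second probe of Hoxd11, at −0.08, lay below that median. Their median was 0.43, and −0.34 on the E1A scale, where the all-gene median was −0.70. In the reported scaling 6 of 9 in HoxB, 5 of 11 in HoxA and 3 of 9 in HoxC lay above the all-gene median of 0.10. This comparison and that of BP10 with control share the BP10 array, so the low HoxD values of BP10 enter both. None of these cluster patterns has a replicate, and 50% of all genes lie above the median by definition.

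The genes can also be read by paralogue number, which joins genes of like sequence and axial level across the clusters. The following ratios are in the reported scaling, which E1A scaling shifts by the change in the all-gene median given above. The pair of group 2, Hoxa2 and Hoxb2, which pattern the hindbrain and the second arch, lay from −0.13 to −0.02 at BP10 and from −0.04 to 0.03 at BP40. The 3 genes of group 5, Hoxa5, Hoxb5 and Hoxc5, which act in the neck and shoulder region, lay from −0.05 to 0.21 and from 0.13 to 0.22. These groups thus kept within the spread between probes at both doses.

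In groups further back the genes lay on both sides of 0 at BP10. In group 10, which patterns the lumbar spine and thigh, Hoxa10 and Hoxc10 were at 0.59 and 0.56, and Hoxd10 at −0.39. In group 11, which patterns the sacrum and forearm, Hoxc11 was at 0.60, and Hoxa11 and Hoxd11 at −0.42 and −0.24. In group 13, of the digits and tail, the BP10 ratios ran from −1.31 for Hoxb13 over −0.79 for Hoxd13 to 0.14 for Hoxc13. At BP40 the genes of groups 10 and 11 lay closer together, from 0.01 to 0.21 and from 0.09 to 0.19, and those of group 13 ran from −0.06 to 0.57. Group 9, of the thoracolumbar trunk, ran from −0.27 to 0.43 at BP10 and from −0.01 to 0.55 at BP40. In HoxA, Hoxa4 (−0.22 and −0.40) and Hoxa7 (−0.38 and −0.12) were below 0 at both doses, as were Hoxb8 (−0.39 and −0.28) and Hoxd8 (−0.37 and −0.08), thoracic genes of group 8.

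Hoxb3, a gene of the hindbrain and pharyngeal arches, gave opposite answers from its 2 probes. The probe used for it had normalized log2 signals of −0.33 on control, −0.90 on BP10 and −0.66 on BP40. The other probe had −2.44, −0.79 and −1.28. The first was highest on control, with log2 ratios of −0.56 and −0.32, and the second lowest there, with 1.65 (3.15-fold) and 1.16 (2.23-fold). The SD between both was 1.57 at BP10, above the 95th percentile of 1.12 over genes with 2 probes, so no direction can be given for Hoxb3.

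In other genes with 2 probes the answers against control were closer. Hoxa9, a posterior gene, had ratios of 0.43 and 0.67 at BP10 and of 0.25 and 0.45 at BP40, all above 0. Hoxd11, a forearm gene, had −0.24 and −0.36 at BP10 but 0.19 and −0.44 at BP40. The second probe of Hoxa13 was dim, above background on 2 arrays and not on BP10. Its ratio at BP10 was −0.51 or lower (−1.16 as measured), where the probe used had −0.12. At BP40 the ratios of Hoxa13 were −0.24 from the second probe and −0.06 from the probe used. Hoxa11, the partner of Hoxd11 in the forearm, was printed 10 times on each array, and gave means of 0.47 (SD 0.04 over 7 spots, with 3 outlier spots left out), 0.05 (SD 0.12 over 10) and 0.56 (SD 0.09 over 9). These SDs cover spots of 1 array and not cultures, and in the reported scaling BP10 was below both other arrays by more than them. On the E1A scale Hoxa11 was lowest on BP40 instead, with ratios of −0.17 at BP10 and −0.43 at BP40.

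**Figure D4:**
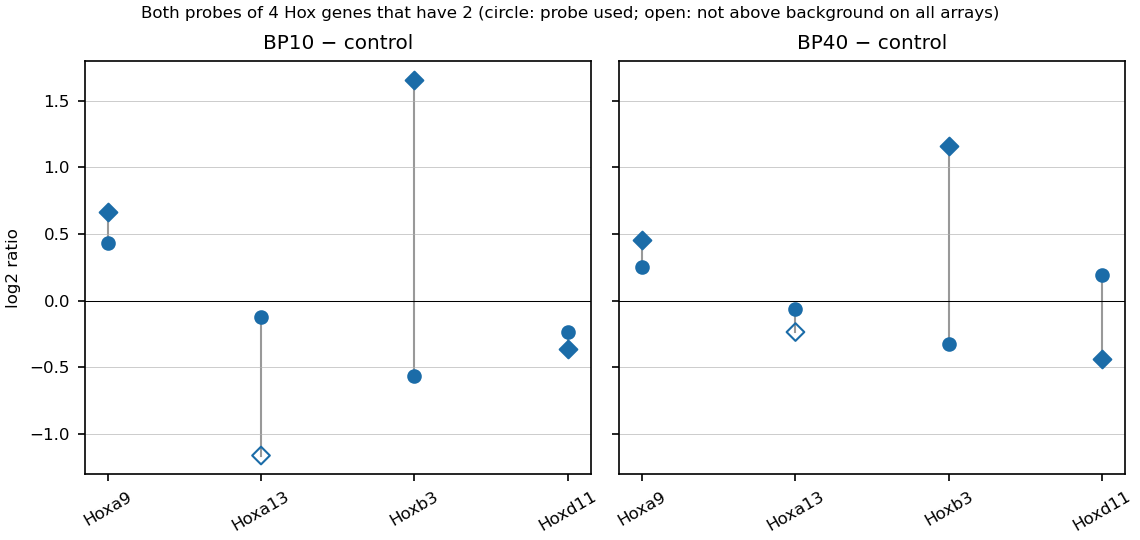
Log2 ratios against control from both probes of 4 Hox genes that have 2, at BP10 and BP40; circles are the probes used, diamonds the others, and open marks probes not above background on all 3 arrays. The Hoxb3 probes lie on opposite sides of 0 at both doses, and those of Hoxa9 on the same side.

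The clusters also hold noncoding and unnamed transcripts. By the positions of the Hox probes, HoxA spans 103.6 kb of chromosome 6, HoxB 170.7 kb of chromosome 11, HoxC 108.2 kb of chromosome 15 and HoxD 93.8 kb of chromosome 2, with every Hox probe of a cluster on 1 strand. Inside these spans lie 39 other probes, 22 of them in HoxB, of which 25 passed the background flag on all 3 arrays and 5 on no array. At BP10 1 of them was called higher and 5 lower, at BP40 5 lower, and between the BP arrays none, close to the 13.1% and 11.7% of all genes called against control and beside the 3.64% called between the BP arrays. HOTAIR, an antisense RNA between Hoxc12 and Hoxc11 that is known to work with Polycomb, has 5 probes, of which 2 were above background on all arrays. The brighter of these had −0.34 on control, −1.06 on BP10 and −1.09 on BP40, so that control was highest, with ratios of −0.72 and −0.75; the other had −0.16 and −0.66. Hoxa11os, the antisense RNA of Hoxa11, had 0.91, 0.52 and 1.31, and BP10 was lowest for it as for Hoxa11 in the reported scaling, while on the E1A scale both BP arrays were alike for it (−0.15 and −0.12). Hoxd3os1, antisense within HoxD between Hoxd8 and Hoxd4, had −3.63, −5.05 and −4.54, and was called lower at BP10, as was Hoxd4, with a ratio of −1.42.

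No cofactor of the Hox proteins was called in any of the 3 comparisons. The shares of all genes called against control were 13.1% and 11.7%, which about 1 of 9 genes would match. Between the BP arrays the share was 3.64%, which is less than 1 of 9 genes. All 9 genes of the Pbx, Meis and Pknox families were above background on every array, with median log2 ratios of −0.07 and 0.11 against control. Meis1, a partner of many Hox proteins, had 2.68, 2.47 and 2.44.

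Nearly the same held for the chromatin regulators of the clusters. Of 29 Polycomb genes, 29 were above background on all arrays, where 13.1%, 11.7% and 3.64% of all genes were called in the 3 comparisons. By the probes used, Cbx7, a reader of methylated histone H3, was the 1 called, higher at BP40 against control. Its normalized log2 signal was −3.51 on control, −2.78 on BP10 and −2.21 on BP40, so that BP40 was highest, with a log2 ratio of 1.30. The core subunits of the methylating complex had small ratios: Ezh2 −0.21 and 0.09, Eed −0.14 and 0.10, Suz12 −0.23 and 0.15. By the probes used, none of 13 Trithorax and H3K27 demethylase genes was called. Other probes above background on all arrays were past 2-fold lower for Phc3 of Polycomb (−1.18 and −1.05) and for Kmt2d at BP40 (−1.07). A further probe of each was not, with 0.42 and 0.26 for Phc3 and 0.27 and −0.14 for Kmt2d. Calls of these genes thus depend on the probe taken.

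The retinoic acid pathway, which switches Hox genes on, was called about as often as genes at large. Of 18 genes 15 were above background on all arrays. At BP10 1 was called higher and 2 lower, at BP40 2 lower, and between the BP arrays 1 lower, beside 13.1%, 11.7% and 3.64% of all genes. Where BP10 is named below as the lowest array, that holds in the reported scaling, and the E1A scale, which lowers every ratio of BP40 to BP10 by 0.77, turns it for genes whose BP arrays lie closer than that. Aldh1a2, the enzyme that makes retinoic acid in the trunk, had −0.41, −1.28 and −1.94 on control, BP10 and BP40, with the lowest value at the higher dose (log2 ratio −1.53). Aldh1a3, a second such enzyme, had −0.41, 0.76 and −0.46, and stood high on BP10 alone (1.17). Crabp2, which carries retinoic acid to its receptors, had 3.44, 2.15 and 2.70, with BP10 lowest (−1.29). Stra6, the retinol uptake receptor, had −3.42 and −4.70 on control and BP10 and was not well above background on BP40, which bounds its ratio there at −1.61 or lower. By the probes used, none of the receptors Rara, Rarb, Rarg, Rxra, Rxrb and Rxrg was called, with ratios from −0.68 to 0.66 against control. The second probe of Rxrg, also above background on all arrays, was past 2-fold lower at −1.42 and −1.45, so that its call depends on the probe taken.

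Of 13 Cdx and other homeobox genes related to the Hox genes, 7 were above background on all arrays, and 3 were called lower at BP10 and 2 at BP40, where 10.5% and 9.15% of all genes were called lower. Cdx2, Cdx4 and Evx1 were not above background on any. Gbx1 had −2.79, −4.58 and −4.25, and Pdx1, the pancreas regulator, −3.10, −4.67 and −4.58, so that control was highest for both. Meox2, a somite and limb muscle gene, had 0.73, −0.39 and 0.00, with a ratio of −1.12 at BP10. Gbx2, of the midbrain border, was at −4.56 and −3.98 on control and BP10 and not well above background on BP40, at most −1.10 against BP10.

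Of 37 limb and trunk factors 32 were above background on all arrays, and 2 were called lower at BP10, 1 lower at BP40, and 1 higher at BP40 against BP10, beside 10.5%, 9.15% and 1.88% of all genes called in those directions. Tbx5, the forelimb factor, had −0.36, −0.35 and −0.32, ratios of 0.01 and 0.04. Of the hindlimb pair, Tbx4 had −1.05, −2.08 and −1.49 and Pitx1 2.43, 1.59 and 2.30. For both, BP10 was the lowest array, with ratios of −1.03, which is a call, and −0.84, which is not. Lhx2, of the limb margin, had −3.71, −4.72 and −4.40 (−1.01 at BP10). Msx1, of the distal limb, had 0.10, −0.73 and −1.06 (−1.16 at BP40), and Tbx2 −1.45, −1.92 and −0.68 (1.23 between the BP arrays).

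Of 16 head and anterior factors, found where Hox genes are silent, 12 were above background on all arrays, with 3 called higher and 2 lower at BP10, 1 lower at BP40, and 1 called in each direction between the BP arrays. The shares of all genes called in those directions were 2.62% and 10.5%, 9.15%, and 1.88% and 1.76%. Dlx5 and Dlx6, neighbours that pattern the jaw, were at −4.50 and −4.97 on control, −3.27 and −3.51 on BP10, and −3.96 and −4.23 on BP40, with BP10 highest (1.23 and 1.46). Otx2, the forebrain factor, had −1.78, −3.46 and −2.99 (−1.68 and −1.21). The fibroblast markers were lower beside these in the reported scaling, with median log2 ratios of −0.60 at BP10 and −0.64 at BP40. At each dose 2 of 12 were called, in the lower direction, and Lum, a matrix proteoglycan, was at −3.21 and −2.22. The macrophage markers had medians of −0.37 and −0.13, beside −0.24 and −0.12 for all genes. Of these 10 markers, 3 had ratios above 0 at BP10 and 4 at BP40. Lyz2 was the 1 called, higher at both doses (1.09 and 1.25). The part of these markers in the ratios of Hox and related genes was not tested.

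**Figure D5:**
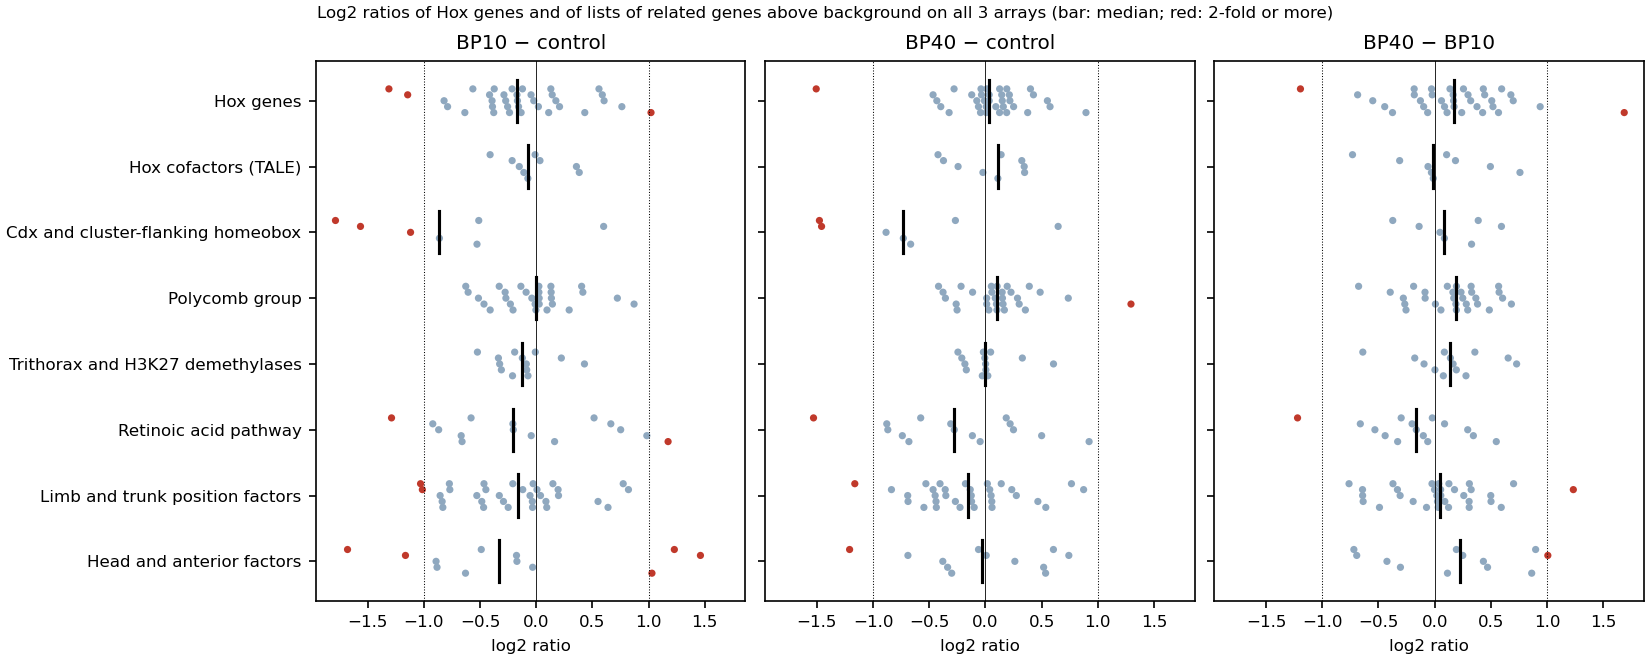
Log2 ratios of the Hox genes and of 7 lists of related genes, each point a gene above background on all 3 arrays, black bars medians, red points beyond 2-fold, for the 3 comparisons. The Hox, cofactor, Polycomb and Trithorax rows have medians near 0 in the reported scaling. The row labelled Cdx and cluster-flanking homeobox holds the Cdx and other related homeobox genes. Its medians against control were −0.86 at BP10 and −0.73 at BP40. Among all genes with a mean normalized log2 signal near −4.04, a class as dim as Gbx1 and Pdx1, the medians were −0.64 and −0.52. Scaling on E1A probes moves the all-gene median to −0.65 at BP40 and the lists with it.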

How the data were processed

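Cy3-labeled RNA of MEF in 3 conditions was hybridized to 3 arrays (Agilent Mouse G3) of 1 slide, 1 for each condition. The authors deposited the scanner output, made with Feature Extraction 10.5.1.1, in which the intensity of each spot is corrected for background within its array. Arrays were not scaled to each other. Values of the deposited series table equal this intensity for 100% of spots (relative tolerance 0.0001). The authors analyzed the arrays in GeneSpring GX, and the sources used here give no normalization or threshold.

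Log2 of the intensity minus the 75th percentile over all gene spots was computed for each array. Outlier spots were left out and spots of a probe averaged. Where a gene has several probes, that with the most arrays above background was used, and the brightest of these. Of 44 Hox probes, 43 carry the same name through their RefSeq accession. Where 1 of 2 arrays compared shows a probe above background, the other value was replaced by the lowest normalized signal above background on its array (−5.70, −5.10 and −5.08 on control, BP10 and BP40), or by its own if higher, which makes the ratio a bound.

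The Hox genes, the lists and the rule for named genes were chosen with earlier results of these data known. Lists were written from general knowledge. Some members are counted in totals and not reported here by name. Values by array are given for Hox genes called in any comparison, for a Hox gene whose probes disagree, and for called (at most 4 per list) and defining list members. With 1 array per condition no test was run. The calling step was checked on simulated data with planted changes well past 2-fold, so the check does not bear on calls near the threshold. The 12 alternatives were other scalings, background corrections, thresholds, filters, the series table, and a median over every probe that a gene has. Python 3.11.15, numpy 2.4.6, pandas 2.3.3, R 4.3.3 and limma 3.58.1 were used.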

Additional observations from a re-analysis of the deposited data

Results flagged for a closer look

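In the reported scaling Hoxb13 and Hoxc8 lay on opposite sides of the control at the 2 doses and differed by more than 2-fold between them. For Hoxb13 the log2 ratio to control was −1.31 with BP10 and 0.38 with BP40, a difference of 1.69 (3.22-fold) between the BP arrays. Hoxc8 went the other way, with 0.76 for BP10 and −0.43 for BP40, a difference of −1.19 (2.29-fold). On the E1A scale Hoxb13 lay below control at both doses (−1.07 and −0.15) and differed by 0.92 between them, under 2-fold, while Hoxc8 kept its sides (1.01 and −0.96) and differed by −1.96. Each value comes from 1 probe with 1 spot on 1 array per dose, and the difference was not tested.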

How the results depend on the processing

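Of 288 values recomputed under 12 alternatives, 108 could not change by the construction of the alternative. Of the other 180, 146 moved by no more than the spread between probes (or by no more than 1.5-fold for counts). The remaining 34 moved by more, and no called gene changed direction. That spread is for single genes and is a loose limit for medians. The Hox median at BP10 against control, −0.17 as reported and 0.08 on the E1A scale, was within it despite the change of sign. The calls at BP10 against control came to 1 with normexp and to 2 with quantile normalization or brightness correction. They came to 4 with no filter on dim probes, 9 at 1.5-fold and 0 at 3-fold. On the E1A scale they stayed at 3, with Hoxc8 in place of Hoxd4. At BP40 against control they came to 2 with quantile normalization, brightness correction, no filter on dim probes or 1.5-fold, and to 0 at 3-fold. At BP40 against BP10 they came to 5 on the E1A scale, 1 with normexp or at 3-fold, and 7 at 1.5-fold. On the E1A scale the median log2 ratios at BP40 against control were −0.49 for the Hox genes, −0.49 for HoxA, −0.32 for HoxB, −0.52 for HoxC and −0.49 for HoxD. At BP40 against BP10 they were −0.60, −0.71, −0.59, −0.83 and −0.34. The HoxD median at BP40 was 0.40 with quantile normalization and 0.38 with brightness correction. Over the E1A probes themselves the median log2 shift before scaling was −0.46, 0.25 and 0.58. The scaling used the mean of these probes instead. It changed every log2 ratio of the reported scaling by 0.25, −0.52 and −0.77 in the 3 comparisons. Quantile normalization, brightness correction and normexp moved the all-gene median at BP10 to −0.05, −0.02 and −0.09, and at BP40 to −0.01, −0.01 and 0.06. The cause of these moves was not tested.

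No paired analysis was possible because no condition has a second array. Dim probes such as that of Hoxc12 limit the precision, and ratios against the control carry the scan session.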
